A study of Drosophila melanogaster with 12 samples.

Results

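What rapamycin food still changed in Drosophila melanogaster larvae without REPTOR was read from 6 of the 12 arrays of the series. These were the 3 arrays of REPTOR knockout larvae fed rapamycin and the 3 arrays of REPTOR knockout larvae fed ethanol food, chosen by their sample titles. Each array held total RNA of whole larvae, labelled with Cy3. Per the labels, the larvae were growth-controlled and synchronised, were female, and were taken 48 h before wandering. They ate food with 200 µM rapamycin for 6 h, or food with the matching amount of ethanol. The other 6 arrays, used here for comparison, came from w1118 control larvae on the same foods, 3 on each. All 4 groups thus share the stage, the feeding time and the ethanol, and the arrays of a group are described as biological replicates. The labels used here name neither the knockout allele nor the number of larvae in a sample.

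TORC1 is a kinase complex that promotes growth when amino acids and insulin are plentiful, in large part by promoting ribosome production and translation, and it holds back autophagy. Rapamycin inhibits it. REPTOR is a bZIP transcription factor that TORC1 phosphorylates and keeps out of the nucleus. When TORC1 is inhibited, REPTOR enters the nucleus and activates genes, so the knockout asks which transcript changes do not need this factor. In whole larvae, less RNA per cell and fewer cells of a type cannot be told apart.

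A level below is the log2 processed signal of a probe relative to the 75th percentile of its array, and an effect is the difference of mean levels, rapamycin minus ethanol, with its SE (n = 3 arrays per group). Levels are not compared between genes. Between 72.5% and 82.7% of the spots of each of the 12 arrays were well above background and 0 were saturated. Most probes carry only a sequence identifier here, and 298 of the 18765 targets tested had a matched gene, 149 of them with a symbol beyond a CG or CR number. No probe was matched to REPTOR, so the targeted gene did not check the genotype labels.

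The rapamycin arrays went against the label female to different degrees. The level of roX2, an RNA of the complex that raises X-linked transcription in males, was -9.06, -7.52 and -8.81 on knockout ethanol arrays 1, 2 and 3, none of them well above background. On knockout rapamycin arrays 1, 2 and 3 it was 0.01, -1.10 and -5.83, well above background on all. The difference of its group means, which pool these unlike rapamycin levels, did not pass in limma (adjusted p = 0.0697). The requirement on array 3 was set from the roX signal, so these levels describe the arrays and test nothing. For roX1, its partner RNA, the levels were -1.39, -1.57 and -1.46 on ethanol and 3.88, 2.91 and -0.47 on rapamycin. The median level of 67 targets whose names are clones from an adult testis cDNA library was between -5.17 and -4.92 on the ethanol arrays, and -2.004, -3.22 and -4.79 on rapamycin arrays 1, 2 and 3. Array 3 therefore stood above all 3 ethanol arrays in each of these measures, clearly in both roX RNAs and by little in the testis clones. Among control arrays, rapamycin array 3 was raised in the same way, with a roX2 level of -1.29. No marker of testis other than f-cup matched a probe. For this reason a change is reported as retained only if it passed the test over all arrays and if knockout rapamycin array 3 lay beyond all 3 knockout ethanol arrays in the same direction. Values without arrays 1 and 2, and with the roX2 level as a covariate, are given beside the counts.

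**Figure D1:**
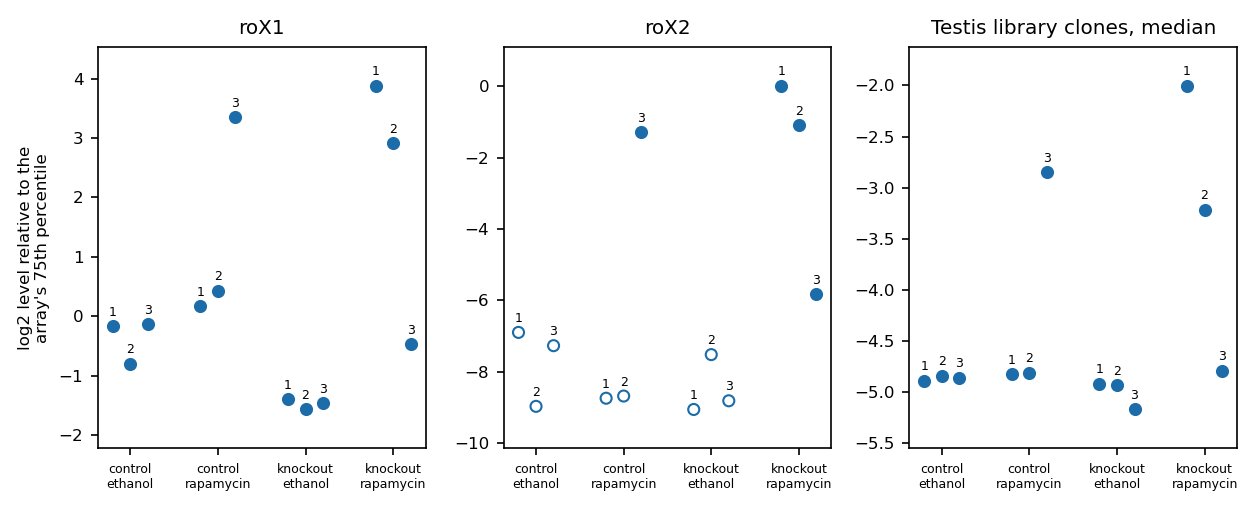
Male signal on the 12 arrays. The log2 level relative to the array's 75th percentile is plotted for roX2, roX1 and the median of 67 testis clones, 1 point per array numbered by replicate, for control and knockout larvae on ethanol and rapamycin. Open points were not well above background. Knockout rapamycin arrays 1 and 2 and control rapamycin array 3 lie above the other arrays in each panel, and knockout rapamycin array 3 has a roX2 level of -5.83.

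Rapamycin changed a sizeable set of transcripts in larvae without REPTOR, in both directions. RNAs of ribosome production and RNA processing, the gluconeogenic gene Pepck1, and genes of lipid, sulfur and molybdenum cofactor metabolism were among those that fell. Of the 4 cytosolic ribosomal protein genes measured 1 rose and 1 fell. An autophagy gene, 1 of 3 subunit genes of a TORC1 activator and several noncoding RNAs rose. Under median centring, 0 of the higher genes with a symbol passed. At an adjusted p under 0.05 (limma, Benjamini-Hochberg over all targets), 2864 targets (15.3%) passed and 2856 (15.2%) were retained, 1184 higher (6.31%) and 1672 lower (8.91%). The other 8 were not beyond the ethanol arrays on array 3. Rapamycin and ethanol arrays lay fully apart for 6456 of all targets tested (34.4%), so absence of overlap alone says little here. For genes named below by the size of their effect it was also a condition of being named, and so is no support. A change of at least 2-fold was seen for 119 of the retained higher and 171 of the retained lower targets.

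Array 3 alone carried most of the size of these changes. For the retained higher targets the median effect was 0.44, and the median was 0.40 on array 3 against 0.46 over arrays 1 and 2. For the retained lower targets the median effect fell by 0.51, with -0.48 on array 3 and -0.51 over arrays 1 and 2. The median over all targets tested was 0.01. Array 3 showed at least 0.5 of the fitted change for 1117 retained higher targets (94.3%) and 1642 retained lower targets (98.2%). The choice of retained targets used array 3, so these shares describe them and test nothing. Without arrays 1 and 2, with array 3 assumed to vary like the other groups, 256 targets passed, 239 of them among the retained. With the roX2 level as a covariate, 386 passed, 368 of them among the retained.

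**Figure D2:**
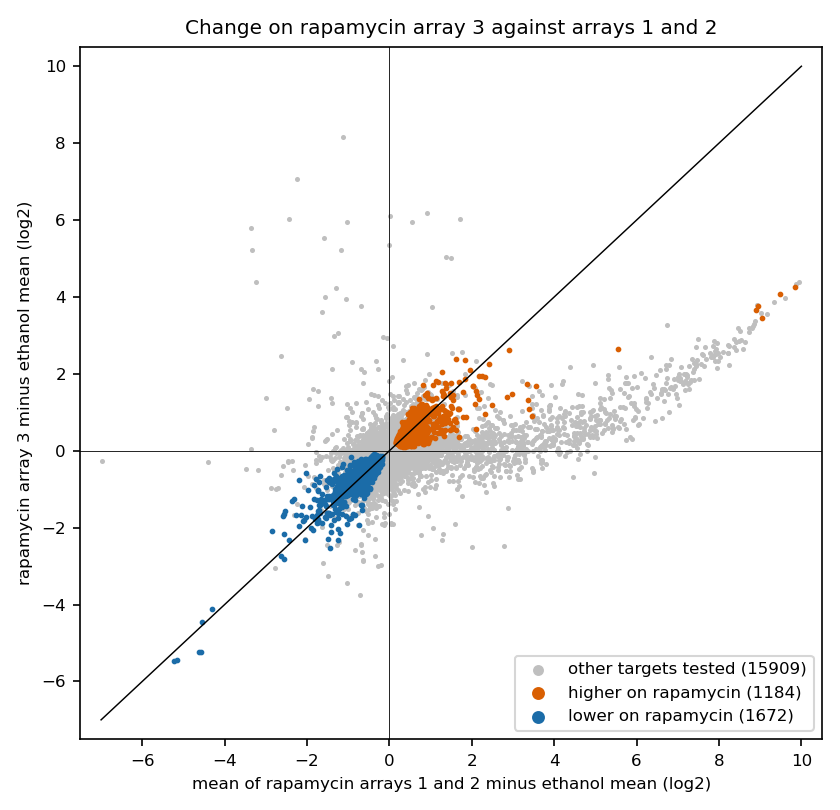
Change on knockout rapamycin array 3 against arrays 1 and 2. Each point is 1 of the 18765 targets tested, with the mean of arrays 1 and 2 minus the ethanol mean on the horizontal axis and array 3 minus the ethanol mean on the vertical axis (log2). The line marks equal change. The 1184 retained higher and 1672 retained lower targets are coloured, and grey points far to the right at a small vertical value are targets raised on arrays 1 and 2 alone.

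Lower calls were more frequent among brighter targets. With the targets in 4 equal groups by mean level, 3.3% of the dimmest and 15.4% of the brightest group were retained lower, with the groups between in order. The shares retained higher were 2.98%, 7.78%, 7.82% and 6.65% from the dimmest to the brightest. The balance of directions depended on the scaling and on array 3. Of the retained targets 41.5% were higher under the 75th percentile, 31.6% under quantile normalisation, 30.6% in the deposited value table, 22.0% with another background correction and 5.74% under median centring. The share was 49.8% with array weights. Without knockout rapamycin array 3 it turned to 54.5%, with 1883 higher and 1574 lower. Median centring shifted the median effect over all targets from 0.01 to -0.31, and quantile normalisation to -0.11.

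The scanning slide limits all of these values. Ethanol arrays 1 and 2 lay on another slide than ethanol array 3 and the 3 rapamycin arrays, and slide and scan cannot be told apart. With slide as a block 254 targets passed, and within the slide, against ethanol array 3 alone, 0 passed after adjustment in limma and 2529 at an unadjusted p under 0.05. Effects within this slide are given below for the genes that matter most.

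All 3 host genes of small nucleolar RNAs that were measured fell, beside 8.91% of all targets. These genes carry in their introns the small nucleolar RNAs that guide modification of ribosomal RNA. Uhg5 had levels of 1.42, 1.07 and 0.95 on ethanol and -0.16, 0.00 and -0.10 on rapamycin, an effect of -1.23 ± 0.13 (adjusted p = 0.000614, within the slide -1.04). All 3 rapamycin arrays lay below all ethanol arrays, with array 3 between the other two. Uhg3 went from -0.02, -0.30 and -0.39 to -1.05, -1.10 and -1.15 (-0.87 ± 0.15, adjusted p = 0.00576, within the slide -0.71). For Uhg2 the levels were -1.18, -1.54 and -1.54 on ethanol and -2.35, -2.18 and -2.23 on rapamycin (-0.83 ± 0.12, adjusted p = 0.0034, within the slide -0.71). All 3 were also lower in control larvae on rapamycin, where 21.8% of all targets were lower. Their effects there were -1.83 for Uhg5, -0.77 for Uhg3 and -1.07 for Uhg2. No difference between genotypes passed (adjusted p = 0.0537, 0.796 and 0.418). Of 5 mature small nucleolar and small Cajal body RNAs 0 passed, with effects from -0.29 for snoRNA:Psi28S-291 to 0.07 for a U3 RNA. With so few members, a count of 0 is near the 15.2% of all targets that were retained. The labelling kit primes at poly(A) tails, which mature small RNAs usually lack, so their signals may not follow their amounts. The same limit holds for the RNAs of RNase MRP, the signal recognition particle and the spliceosome described next.

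Other genes of ribosome and RNA production fell with them. Rrp42, a core subunit of the RNA exosome that trims ribosomal RNA precursors, had levels of -0.40, -0.86 and -0.61 on ethanol and -1.32, -1.36 and -1.40 on rapamycin (-0.74 ± 0.12, adjusted p = 0.00443, within the slide -0.75). The RNA of RNase MRP, an enzyme that cuts the ribosomal RNA precursor, went from 1.89, 1.81 and 1.99 to 1.28, 1.56 and 1.13 (-0.57 ± 0.11, adjusted p = 0.0108). Both gave their lowest rapamycin level on array 3. 7SLRNA:CR32864, an RNA of the signal recognition particle that targets secreted proteins to the membrane, fell from 3.12, 2.84 and 3.05 to 2.44, 2.52 and 2.44 (-0.54 ± 0.08, adjusted p = 0.00348). Polr2F, a subunit of RNA polymerase II, fell from 1.94, 1.48 and 1.83 to 1.34, 1.24 and 1.13 (-0.51 ± 0.11, adjusted p = 0.0168), and Polr2J, another subunit, did not pass (-0.11 ± 0.10). Each of these 4 that fell also fell in control larvae, with effects of -0.52, -0.41, -0.40 and -0.45 in the order given.

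Among 5 spliceosomal RNAs, 1 fell, beside 8.91% of all targets. snRNA:U12, an RNA of the minor spliceosome, went from -2.97, -3.23 and -2.96 on ethanol to -3.71, -3.57 and -3.63 on rapamycin (-0.59 ± 0.11, adjusted p = 0.00852). Its effect in control larvae was -0.19 (adjusted p = 0.185), and the difference between genotypes did not pass (adjusted p = 0.127). The other minor spliceosome RNA, snRNA:U11, had an effect of 0.11 ± 0.27, and the 3 RNAs of the major spliceosome had 0.18 (snRNA:U1:21D), 0.03 (snRNA:U1:82Eb) and 0.03 (snRNA:U2:34ABb).

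The 4 cytosolic ribosomal protein genes measured did not move together. Of them 1 rose and 1 fell, beside 6.31% higher and 8.91% lower over all targets. RpL30, a protein of the large subunit, had levels of 0.05, 0.41 and -0.27 on ethanol and 0.82, 1.02 and 0.92 on rapamycin (0.86 ± 0.16, adjusted p = 0.00782, within the slide 1.19). It had the largest rise among the retained genes with a symbol, stood clear of the ethanol arrays on all 3 rapamycin arrays, and had an effect of 0.87 in control larvae. RpS7, of the small subunit, went the other way, from -3.90, -4.15 and -4.04 to -4.76, -4.61 and -4.65 (-0.64 ± 0.11, adjusted p = 0.00562), with -0.77 in control larvae. The RpS7 level was well above background on all arrays but low. Its knockout effect was -0.37 with another background correction (normexp). RpS14b (0.13 ± 0.07) and RpS29 (-0.25 ± 0.25) did not pass.

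Of 3 mitochondrial ribosomal protein genes 2 fell, beside 8.91% of all targets, and so did a gene of transfer RNA charging. The mitochondrial ribosomal protein gene mRpL52 went from 1.94, 1.42 and 1.78 to 1.21, 1.22 and 1.00 (-0.57 ± 0.14, adjusted p = 0.0255). mRpL14 went from 1.55, 0.90 and 1.37 to 0.72, 0.84 and 0.58 (-0.56 ± 0.16, adjusted p = 0.04). In both genes ethanol array 2 was the lowest of its group and came close to the rapamycin arrays, and array 3 was the lowest of all. The third member, mRpS16, did not pass (-0.41 ± 0.16, adjusted p = 0.103). TrpRS, which charges the tryptophan transfer RNA, fell from 0.30, -0.03 and 0.09 to -0.43, -0.46 and -0.65 (-0.64 ± 0.11, adjusted p = 0.00562). This fall was smaller than in control larvae, whose effect was -1.33 (difference 0.69 ± 0.15, adjusted p = 0.0144).

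Single genes of several metabolic steps fell, while others measured did not pass. Pepck1, which encodes the enzyme that starts glucose synthesis from oxaloacetate, had levels of 4.24, 3.48 and 3.84 on ethanol and 2.70, 2.51 and 2.24 on rapamycin. Its effect of -1.37 ± 0.23 (adjusted p = 0.00577, within the slide -1.36) was the largest fall among the retained genes with a symbol, and array 3 was the lowest of the 6 arrays. The transcript behind this probe also carries the name CG45087 in the reference table, so both genes may contribute. In control larvae the effect was -0.75, and the difference between genotypes did not pass (-0.62, adjusted p = 0.256). A second probe of the gene gave -1.57. The other gene of sugar metabolism measured, the aldolase gene Ald1, had -0.34 ± 0.12 (adjusted p = 0.0872).

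ATPCL, which makes cytosolic acetyl-CoA for fatty acid synthesis from citrate, fell from -4.74, -4.96 and -5.30 to -5.64, -5.72 and -5.62 (-0.66 ± 0.18, adjusted p = 0.0388, within the slide -0.36). Its level was well above background on all arrays but low, and the distance of ethanol array 3 from the rapamycin arrays was smaller than that of ethanol arrays 1 and 2. In control larvae the effect was 0.12 (adjusted p = 0.631), and the difference did not pass (adjusted p = 0.0741). The hormone-sensitive lipase gene Hsl, which releases fatty acids from stored fat, had -0.02 ± 0.08 in the knockout. In control larvae Hsl rose by 0.94 (adjusted p = 1.83e-05), and the difference between genotypes passed (-0.95 ± 0.11, adjusted p = 0.00069).

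Both measured enzymes of sulfite oxidation and its cofactor were lower, beside 8.91% of all targets. This pair was chosen after their values were seen. shop, which encodes sulfite oxidase and has Suox among its synonyms, went from 2.25, 1.85 and 2.52 to 1.40, 1.46 and 1.51 (-0.75 ± 0.16, adjusted p = 0.0159, within the slide -1.07). Mocs2B, a subunit of molybdopterin synthase, which makes the molybdenum cofactor that sulfite oxidase needs, went from -2.72, -2.97 and -2.96 to -3.54, -3.20 and -3.21 (-0.43 ± 0.11, adjusted p = 0.0286). The transcript behind the Mocs2B probe also carries the name Mocs2A, so both genes may contribute. For shop and for Mocs2B the rapamycin arrays lay below all ethanol arrays. shop had -1.06 in control larvae, whereas Mocs2B had -0.23 there (adjusted p = 0.125), and neither difference between genotypes passed.

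The remaining lower genes were smaller in effect. Vha13, a subunit of the proton pump that acidifies lysosomes, went from 6.62, 6.50 and 6.63 to 6.12, 6.37 and 6.20 (-0.35 ± 0.09, adjusted p = 0.0291), and the lysosomal protease gene CtsB had -0.03 ± 0.14. The cyclophilin gene Cyp1, whose product helps proteins fold, went from -0.70, -1.05 and -0.90 to -1.52, -1.20 and -1.26 (-0.44 ± 0.12, adjusted p = 0.0349), and 2 further probes gave -0.39 and -0.48. In neither gene did rapamycin and ethanol arrays overlap. The heat shock cognate gene Hsc70-1 had 0.11 ± 0.15.

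Of 3 GATOR2 genes measured 1 rose, as did the autophagy gene tested, both by little. Over all targets 6.31% were retained higher. Wdr59, a subunit of GATOR2, the complex that relays amino acid supply to TORC1, had levels of -1.71, -1.57 and -1.53 on ethanol and -1.13, -1.29 and -1.28 on rapamycin. Its effect of 0.37 ± 0.11 (adjusted p = 0.0457, within the slide 0.30) was smaller than the rise of 1.71 in control larvae (difference -1.34 ± 0.15, adjusted p = 0.00053). The groups did not overlap, although the shift was small beside that in control larvae. The other GATOR2 subunits did not pass in the knockout, mio with -0.01 ± 0.06 and Wdr24 with 0.06 ± 0.11. The difference between genotypes passed for mio (adjusted p = 1.2e-05), which had risen by 1.51 in control larvae. Atg10, which conjugates Atg12 to Atg5 during autophagosome formation, went from 0.73, 0.66 and 0.70 to 0.88, 1.01 and 0.96 (0.26 ± 0.06, adjusted p = 0.0165), but its effect was -0.064 under median centring.

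Of 9 genes of RNA polymerase II and transcription 3 were higher, atos, cnc and spen, and 1 was lower. Over all targets 6.31% were higher and 8.91% lower, and this list was added or edited after values were seen. Of 3 signalling genes Mob2 was higher, and kek1 (-0.17 ± 0.14) and puc (-0.31 ± 0.12) did not pass. atos, which encodes a nuclear protein that promotes macrophage invasion, went from -4.03, -4.11 and -3.91 to -3.57, -3.42 and -3.56 (0.50 ± 0.11, adjusted p = 0.0169). Its rise was smaller than the 1.38 of control larvae (adjusted p = 0.00528 for the difference), and 2 further probes gave 0.31 and 0.17. The call was lost under median centring (0.18), under quantile normalisation (0.11) and in the value table (0.063). The difference was -0.026 with normexp background correction (adjusted p = 0.978). Mob2, which encodes an adaptor of NDR-family kinases, went from -1.02, -0.72 and -0.93 to -0.50, -0.48 and -0.47 (0.41 ± 0.09, adjusted p = 0.0149). The rapamycin arrays lay close together and above all ethanol arrays. For Mob2 the effect was -0.05 in control larvae, and the difference passed (0.46 ± 0.12, adjusted p = 0.0344).

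cnc, the fly relative of the oxidative stress factor Nrf2, went from -4.23, -4.08 and -4.38 to -3.93, -3.92 and -3.80 (0.35 ± 0.08, adjusted p = 0.0246), with -0.075 under quantile normalisation and -0.080 in the value table. spen, which encodes an RNA-binding regulator of transcription, went from -0.95, -1.04 and -0.88 to -0.68, -0.65 and -0.67 (0.29 ± 0.06, adjusted p = 0.0153), with -0.028 under median centring. Array 3 was the highest rapamycin array for cnc and the middle one for spen. Both were higher in control larvae too, by 0.51 and 0.49.

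The last 4 genes with a symbol that rose have no common role. sei, a potassium channel of the ERG type, went from -2.48, -2.48 and -2.43 to -2.01, -2.10 and -2.29 (0.33 ± 0.09, adjusted p = 0.0369), with the smallest rise on array 3. CHKov1, of a family with a kinase-like domain, went from 3.89, 3.86 and 3.88 to 4.08, 4.16 and 4.13 (0.25 ± 0.06, adjusted p = 0.0198, -0.071 under median centring), against 0.07 in control larvae. f-cup, known for transcription in the male germline after meiosis, went from -0.38, -0.38 and -0.40 to -0.01, -0.18 and -0.24 (0.24 ± 0.07, adjusted p = 0.0397, -0.077 under median centring). Its order over the rapamycin arrays was that of roX2, and its rise was far below the 1.58 of control larvae (difference -1.34 ± 0.10, adjusted p = 5.65e-05). lncRNA:mimi went from 0.49, 0.50 and 0.42 to 0.70, 0.81 and 0.60 (0.23 ± 0.07, adjusted p = 0.0497, -0.089 under median centring).

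**Figure D3:**
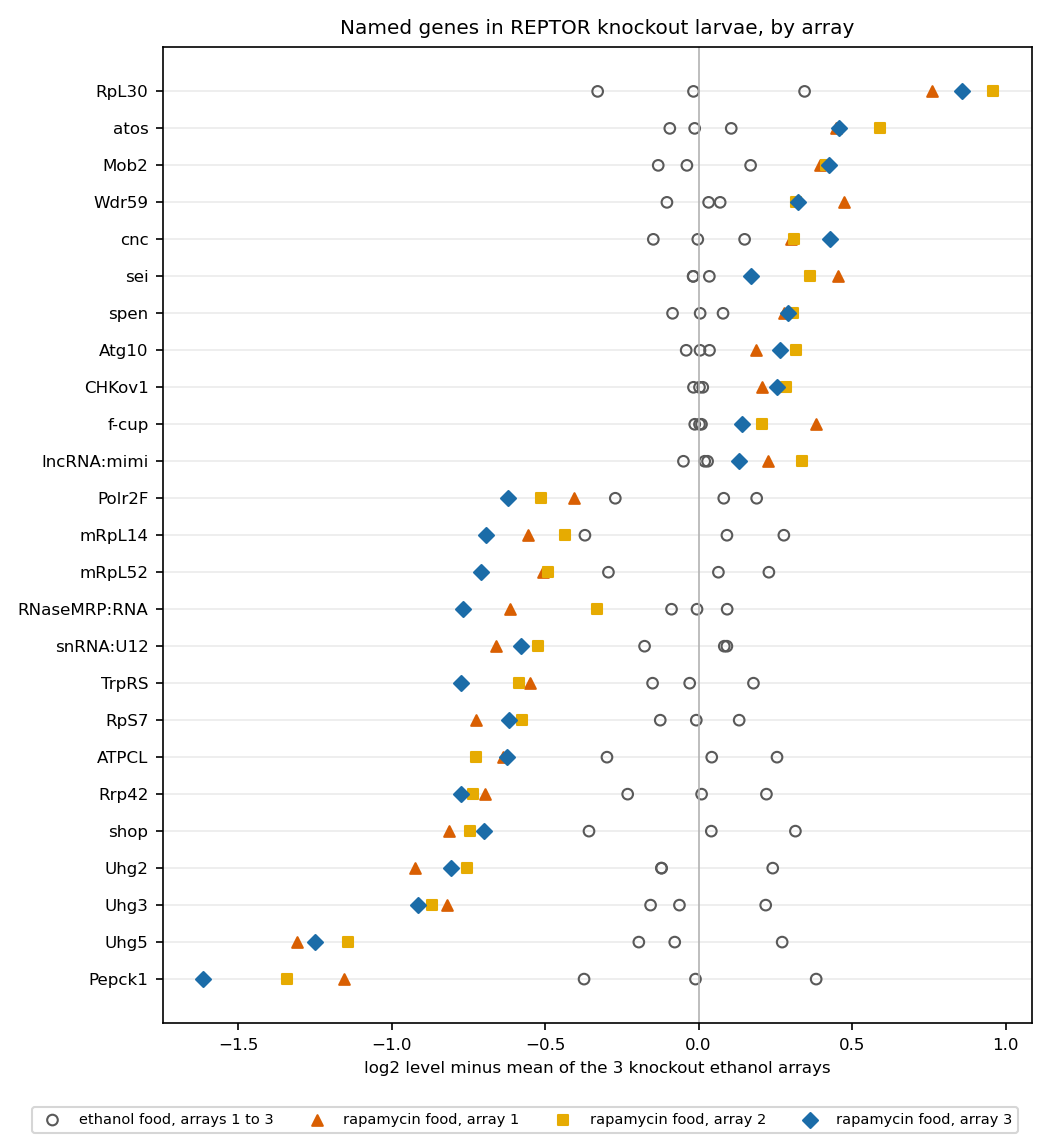
Genes with a symbol retained on rapamycin in knockout larvae. For each gene the log2 level of each array minus the mean of the 3 knockout ethanol arrays is plotted, with open circles for ethanol arrays and a triangle, a square and a diamond for rapamycin arrays 1, 2 and 3. The diamonds lie on the side of the call for each gene, from -1.62 for Pepck1 to 0.86 for RpL30.

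Of the 149 tested genes with a symbol, 11 were thus higher and 17 lower. Most of these calls were lost without arrays 1 and 2, and most with slide as a block. Both settings compare fewer arrays, so the loss does not show which arrays the calls rest on. Without arrays 1 and 2 all 28 kept their direction. With slide as a block 2 of the 28 passed, RpL30 (adjusted p = 0.0343) and Uhg5 (adjusted p = 0.0426), and 0 passed within the slide, although all 28 kept their direction there. Without arrays 1 and 2 the test passed for Uhg5 and RNaseMRP:RNA, and with the roX2 covariate for Uhg5 and TrpRS. Under median centring 0 of the 11 higher genes passed and 5 turned, as given beside each, while 14 of the 17 lower genes passed. Wdr59 (0.05), Mob2 (0.09) and sei (0.0093) came close to 0 in that setting.

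Of 50 RNAs tested whose names mark them as long noncoding 7 were higher and 1 lower, and of 35 antisense RNAs 4 were higher and 1 lower, beside 6.31% higher and 8.91% lower over all targets. The first list leaves out the 3 host genes above, which are also long noncoding RNAs and fell. The median effects of the lists were 0.15 and 0.28, beside 0.01 over all targets. lncRNA:CR42862 had levels of 4.92, 5.08 and 5.04 on ethanol and 5.61, 5.81 and 5.76 on rapamycin (0.71 ± 0.08, adjusted p = 0.000824, within the slide 0.69). All 3 rapamycin arrays lay more than 0.5 above every ethanol array, and 4 further probes of this RNA gave effects from 0.76 to 0.90. It had risen more in control larvae, by 1.77 (difference -1.06 ± 0.11, adjusted p = 0.000342). lncRNA:CR43334 went from -1.22, -1.22 and -1.11 to -0.58, -0.37 and -0.66 (0.65 ± 0.09, adjusted p = 0.00194), and in control larvae the rise of 1.34 was larger too (adjusted p = 0.00532 for the difference). lncRNA:CR43126 went from -4.04, -3.91 and -3.75 to -3.14, -3.24 and -3.37 (0.65 ± 0.12, adjusted p = 0.00919), with 0.59 in control larvae and -0.29 at a second probe that was not well above background on any array.

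Some of the noncoding RNAs followed the order of the male signal. lncRNA:CR43301 went from -5.15, -4.87 and -4.86 to -3.05, -3.70 and -4.13 (1.33 ± 0.22, adjusted p = 0.00498). asRNA:CR44030 went from -2.24, -2.05 and -1.92 to -0.12, -0.91 and -1.44 (1.24 ± 0.26, adjusted p = 0.0138). In both, rapamycin array 1 was highest and array 3 lowest, with array 3 still above all ethanol arrays, by 0.83 and 0.63 relative to the ethanol mean. The protein-coding gene CG7720 had the same order, from -0.93, -1.27 and -1.09 to 0.66, 0.52 and -0.01 (1.48 ± 0.16, adjusted p = 0.000824, 1.08 on array 3). Its 2 further probes, dim on most arrays, gave 1.31 and 0.55.

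A further 4 antisense RNAs passed, 3 higher and 1 lower. asRNA:CR44029 did not rise well above background with ethanol (0 of 3 knockout arrays) but did on all 3 rapamycin arrays, at -5.73, -5.41 and -6.11, which puts it at least 2.67-fold higher (adjusted p = 0.00651). Such a bound sets the rapamycin mean against the detection level of the dim arrays. Its effect in control larvae was 0.21, and the difference passed (adjusted p = 0.0375). asRNA:CR43464 went from -7.45, -7.70 and -6.37, of which 1 was well above background, to -5.35, -5.41 and -5.63 (adjusted p = 0.00535). With most ethanol arrays of this RNA at background the size of its rise is not given, and within the slide the fitted effect was 0.90. asRNA:CR44069 went from -6.00, -6.22 and -6.40 to -5.64, -5.53 and -5.48 (0.66 ± 0.19, adjusted p = 0.0424), against -0.50 in control larvae (difference 1.15 ± 0.26, adjusted p = 0.0183). The antisense RNA that fell was asRNA:CR43767, from -3.31, -3.21 and -3.33 to -3.95, -3.94 and -4.02 (-0.69 ± 0.07, adjusted p = 0.000767). Its arrays were tight in both groups, and its effect in control larvae, -1.65, was larger (adjusted p = 0.000399 for the difference).

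Genes with only a CG number included the strongest single call with a name. CG8026, through a transcript that also carries the name CG45085, had levels of 1.81, 1.48 and 1.45 on ethanol and 0.03, 0.00 and -0.15 on rapamycin (-1.62 ± 0.11, adjusted p = 7.8e-05, within the slide -1.49). The groups lay more than 1 apart, and the call held in 31 of 32 alternative settings. Its effect in control larvae was -2.29 (difference 0.67 ± 0.15, adjusted p = 0.0173). CG15533 went from 2.84, 2.19 and 2.99 to 1.67, 1.71 and 0.90 (-1.24 ± 0.29, adjusted p = 0.0198), lowest on array 3, with -2.12 in control larvae. CG13159 went from -3.70, -2.98 and -4.45 to -4.88, -5.33 and -4.57 (-1.22 ± 0.33, adjusted p = 0.0363), where ethanol array 3 and rapamycin array 3 differed by little. The effect of CG13159 within the slide was -0.48.

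For CG8204 the directions in the genotypes were opposite. It went from 0.13, -0.19 and -0.03 to -0.51, -0.52 and -0.75 in the knockout (-0.56 ± 0.13, adjusted p = 0.0176), while its effect in control larvae was 0.59 ± 0.13 (adjusted p = 0.00407). The difference was -1.15 ± 0.18 (adjusted p = 0.00264). CG31183 was higher in the knockout alone by call, from -1.13, -1.06 and -0.84 to -0.45, -0.56 and -0.54 (0.49 ± 0.12, adjusted p = 0.0268), and its difference from the -0.20 of control larvae passed (adjusted p = 0.0266). CG14715 fell from -0.38, -0.61 and -0.50 to -0.95, -0.91 and -0.80 (-0.39 ± 0.10, adjusted p = 0.0262), against 0.18 in control larvae (adjusted p = 0.0218 for the difference). The other retained genes with a number were CG7071, which shares its transcript name with Muted (-0.50 ± 0.08), CG9672 (-0.47 ± 0.11) and lncRNA:CR9162 (-1.14 ± 0.32, with 0.39 at a second probe), and higher, lncRNA:CR32194 (0.82 ± 0.20, well above background on 2 of 3 ethanol arrays), CG7220 (0.38 ± 0.11), CG1492 (0.37 ± 0.10), lncRNA:CR43943 (0.36 ± 0.08) and CG8818 (0.29 ± 0.06). Of these, CG8818 turned under median centring, and CG1492 and lncRNA:CR43943 turned both under quantile normalisation and in the value table.

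**Figure D4:**
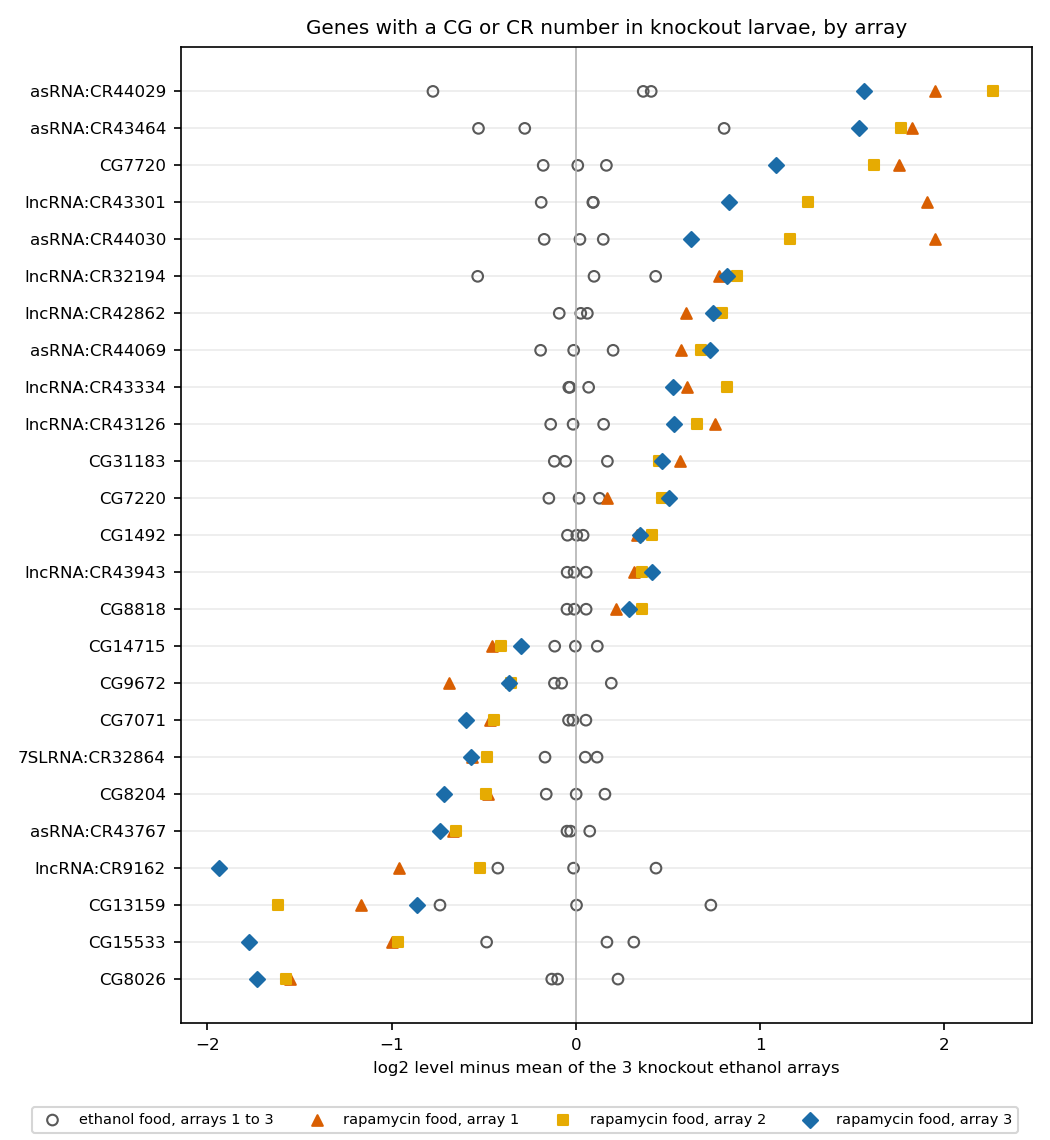
Retained genes and noncoding RNAs that carry only a CG or CR number. Axes and symbols are those of the plot of genes with a symbol: the log2 level of each array minus the mean of the 3 knockout ethanol arrays, open circles for ethanol and a triangle, a square and a diamond for rapamycin arrays 1, 2 and 3. The 15 higher and 10 lower members show array 3 beyond the ethanol arrays, and for lncRNA:CR43301, asRNA:CR44030 and CG7720 the diamond lies below the other rapamycin arrays.

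Larger effects belonged to targets with no gene name here. Of those well above background on all 6 knockout arrays, 2 fell most. FBtr0082637 had levels of 0.99, -0.77 and -0.13 on ethanol and -5.27, -4.96 and -5.42 on rapamycin (-5.25 ± 0.37, adjusted p = 9.42e-05, within the slide -5.09). FBtr0082636 behaved alike, from 1.08, -0.56 and -0.14 to -4.61, -4.39 and -5.11 (-4.83 ± 0.52, adjusted p = 0.000761). Both were well above background on all 12 arrays, and both were lower in control larvae on rapamycin, with effects of -3.57 and -3.18 and no difference between genotypes that passed (adjusted p = 0.0603 and 0.171). The 2 highest rises among unnamed targets well above background on all 6 knockout arrays depended more on the array. FBtr0290228 went from -0.26, 2.16 and -0.23 to 4.63, 3.61 and 2.25, so that array 3 barely cleared ethanol array 2 (2.94 ± 0.74, adjusted p = 0.0274, 1.69 on array 3). FBtr0085470 went from 0.33, 0.60 and 0.61 to 4.01, 3.74 and 1.84 (2.68 ± 0.49, adjusted p = 0.00764, 1.32 on array 3).

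Most retained changes were in the direction seen in control larvae, where 8077 targets (43%) passed, 3983 higher (21.2%) and 4094 lower (21.8%). Of the 1184 retained higher targets 818 were also higher in control larvae (69.1% of the retained, 20.5% of those higher in control), 33 were lower and 333 were not called there. Of the 1672 retained lower targets 1306 were also lower in control larvae (78.1% and 31.9%), 62 were higher and 304 were not called. The groups behind these effects share no arrays, but all 4 share 1 estimate of the spread. In both genotypes the arrays with a clearly raised roX signal were rapamycin arrays, 1 and 2 in the knockout and 3 in control. Slide also went in part with food in both genotypes. What these add to the shared direction was not tested. The median control effect was 0.44 over the retained higher and -0.63 over the retained lower targets, beside 0.05 over all. The difference between genotypes passed for 2742 of all targets (14.6%). Among the retained higher targets the effect was smaller in the knockout for 155 and larger for 104, and among the retained lower targets the fall was smaller for 279 and larger for 143. These counts concern targets chosen for their change in the knockout, which favours large effects there.

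**Figure D5:**
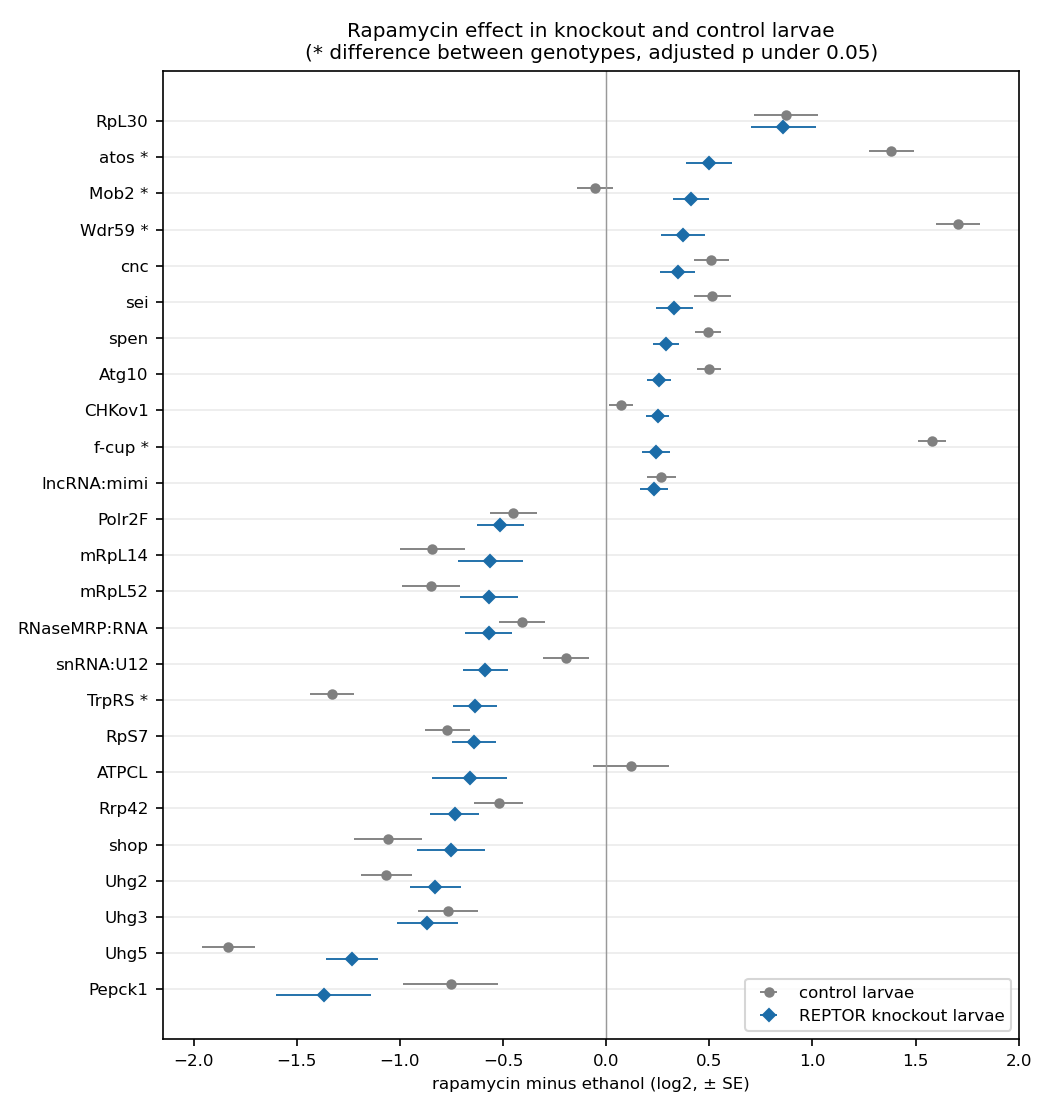
Rapamycin effect in knockout and control larvae for the retained genes with a symbol. Points are rapamycin minus ethanol (log2) with bars of 1 SE, grey circles for control and blue diamonds for knockout larvae, and an asterisk marks an adjusted p under 0.05 for the difference. Wdr59, atos and f-cup rose less and TrpRS fell less in the knockout, Mob2 rose in the knockout with -0.05 in control larvae, and RpL30 was at 0.86 and 0.87.

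In several gene lists with calls in control larvae no member passed in the knockout, and 2 of them are described here. In the knockout 15.2% of all targets were retained, against 43% called in control larvae. With so few members, a count of 0 is near the 15.2%. Of 7 genes of mitochondrial respiration and carriers 5 were lower in control larvae (median -0.32) and 0 passed in the knockout (median -0.10, from -0.25 for aralar1 to -0.02 for ATPsynG), and none of the 7 passed in any of the 32 alternative settings. The difference between genotypes passed for aralar1, a mitochondrial aspartate-glutamate carrier (adjusted p = 0.0385), and for FeCH, the last enzyme of heme synthesis (adjusted p = 0.0459), but not for the other five. Of 5 cuticle and chitin genes 3 were lower in control larvae and 0 passed in the knockout, with the difference passing for the cuticle protein genes Cpr49Ag (adjusted p = 0.00577) and Cpr60D (adjusted p = 0.0332). Nepl4, a peptidase gene of the neprilysin family, had 0.40 ± 0.12 in the knockout (adjusted p = 0.054) against 3.16 in control larvae (adjusted p = 2.41e-05 for the difference). Its levels, -0.83, -0.36 and -0.65 on ethanol and -0.28, -0.27 and -0.10 on rapamycin, did not overlap between the groups.

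Of the 6 histone genes measured, 4 had an SD above 0.5 over the rapamycin arrays, and His3.3B (0.27) and His4:CG33907 (0.12) were tighter. His4:CG33899, a core histone gene, had -1.70, -2.64 and -2.14 on ethanol and 1.16, -0.16 and -1.85 on rapamycin (1.88 ± 0.67, adjusted p = 0.0867). Its rapamycin arrays followed the order of roX2, and array 3 lay among the ethanol arrays. His2B:CG33876 had the same order, with rapamycin levels of -5.09, -5.72 and -6.62. Of the 6 genes 0 passed, which with so few members is near the 15.2% of all targets that were retained.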

How the data were processed

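The scanner files hold the intensity of each spot, deposited by the authors; the submitters' processing notes name Agilent Feature Extraction 10.7. The processed signal used is a background-corrected intensity per the file headers. The deposited value table, an intensity with no stated processing, served as an alternative. In this work, log2 signals were set relative to each array's 75th percentile, control spots and 820 outlier spots were left out, and spots of a probe were averaged. Of 32162 probes 521 matched exactly 1 gene in a Release 6 RefSeq table through accession, clone or transcript synonym, 4 matched several and 31637 none. Genes or target names (25842) were represented by their brightest probe and tested where that probe exceeded background well on all 3 arrays of any group, which left 18765. limma 3.58.1 in R 4.3.3 fitted 4 groups (8 residual degrees of freedom), with Benjamini-Hochberg adjustment, two-sided, threshold 0.05. The number of arrays limits the precision. The script was tested on simulated data.

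Named genes are the 14 highest and 14 lowest retained genes with a symbol (all, if fewer), and members of gene lists. The 2 highest and 2 lowest targets without a symbol that were well above background on all 6 knockout arrays were also named. Apart from list members, these had to have knockout rapamycin and ethanol arrays that did not overlap. Genes with only a CG or CR number were added after their values were seen. Members and lists were chosen with earlier results of these data known. The lists of histones, innate immunity, sulfite enzymes, small RNAs of RNA processing and transcription were added or edited after values were seen. The innate immunity member BomS6 did not pass, nor did CrebA (salivary gland), Fen1 and Gen (replication), Chpf and LanA (matrix), mxt (translation), kek1 and puc (signalling) or Nepl7. Alternatives were other scalings, background correction, filters, probe averaging, slide or replicate number as a block, variance models, stricter thresholds and arrays left out. Promoter motifs were not analysed here.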

Additional observations from a re-analysis of the deposited data

Results flagged for a closer look

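Of the retained genes and RNAs, 28 had a symbol and 25 only a number. In 15 of them the rapamycin effect differed between the genotypes (limma's difference of effects, knockout minus control, adjusted p under 0.05). Over all targets tested the difference passed for 14.6%. The retained genes were chosen for their change in the knockout, which favours large effects there. The effect was lower in the knockout for Wdr59 (-1.34 ± 0.15), f-cup (-1.34 ± 0.10), atos (-0.89 ± 0.16), lncRNA:CR43301 (-1.54 ± 0.31), lncRNA:CR42862 (-1.06 ± 0.11) and lncRNA:CR43334 (-0.69 ± 0.12), which rose in both genotypes. It was also lower for CG8204 (-1.15 ± 0.18), which rose in control larvae and fell in the knockout, and for CG14715 (-0.57 ± 0.14). The effect was higher in the knockout for TrpRS (0.69 ± 0.15), CG8026 (0.67 ± 0.15) and asRNA:CR43767 (0.96 ± 0.10), which fell in both. It was higher as well for Mob2 (0.46 ± 0.12), asRNA:CR44029 (1.72 ± 0.47), asRNA:CR44069 (1.15 ± 0.26) and CG31183 (0.69 ± 0.17), none of which passed in control larvae. Control rapamycin array 3 and knockout rapamycin arrays 1 and 2 carry the raised roX signal. Without these arrays 974 targets differed between genotypes, and with the roX2 level as a covariate 1904 did, 1762 of them among the 2742. For the 5 with a symbol, the call of the difference held in 28 of 28 alternatives for f-cup, 27 for Wdr59, 23 for atos, 20 for TrpRS and 10 for Mob2. For asRNA:CR44029 the knockout ethanol arrays were not well above background, so the fitted difference does not size the change.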

How the results depend on the processing

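The count of retained targets, 2856, moved with most choices, as did the 2742 targets whose effect differed between genotypes. In this order the counts were 1603 and 433 under median centring, 477 and 559 with normexp background correction, 254 and 616 with slide as a block, 914 and 1160 at an adjusted p under 0.01, and 290 and 789 at a change of at least 2-fold. Without knockout rapamycin arrays 1 and 2 they were 256 and 1350, and 189 and 974 without control rapamycin array 3 as well. With the roX2 level as a covariate, chosen after the data were seen, 386 were retained. The fit of the knockout arrays alone gave 509, and within slide 3 there were 0. Array weights gave 4282 targets that differed between genotypes. The share higher among the retained was 54.5% without knockout rapamycin array 3. Leaving out each array in turn gave 1319 to 3457 retained and 1848 to 2958 differing. In the knockout, dropping ethanol array 1 left 1319 retained, dropping ethanol array 3 left 1873, and dropping rapamycin array 1 or 2 left 1855 or 1539. The replicate block gave 1766 retained and 1953 differing, but the numbers do not pair the samples, since same-numbered deviations correlated at 0.18, -0.18 and 0.10. Effects that turned sign were, under median centring, spen (-0.028), Atg10 (-0.064), CHKov1 (-0.071), f-cup (-0.077), lncRNA:mimi (-0.089) and CG8818 (-0.032). Under quantile normalisation they were cnc (-0.075), CG1492 (-0.047) and lncRNA:CR43943 (-0.096), and in the deposited value table cnc (-0.080), CG1492 (-0.11) and lncRNA:CR43943 (-0.12). Median centring lowered the effect of each of these genes by the same amount, so its turned signs are 1 common shift of small rises. Why the scalings differed was not tested. The normexp correction used the median spot signal. A block by scan date was not run, since it equals the slide.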

Other observations

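Apart from the retained changes, 454 targets stood out on rapamycin arrays 1 and 2. The mean of these arrays was at least 3 above the knockout ethanol mean (log2), with a median of 4.79. On array 3 the median of the 454 targets was 0.85, and 409 of them lay above the ethanol mean. Only 11 of the 454 were retained, with medians of 2.65 on array 3 and 5.55 on arrays 1 and 2.

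Another 19 targets stood at least 3 above the ethanol mean on rapamycin array 3, while the mean of arrays 1 and 2 was under 1 relative to it. Their median was 5.34 on array 3 and -1.25 on arrays 1 and 2, and 0 of them were retained.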
